A study of Mus musculus with 2 samples.

Results

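The adrenal expression of 10 genes was examined in the adult mouse: the 11-beta-hydroxysteroid dehydrogenases Hsd11b1 and Hsd11b2, H6pd, which supplies Hsd11b1 with its cofactor, and the 17-beta-hydroxysteroid dehydrogenases Hsd17b1, Hsd17b2, Hsd17b3, Hsd17b4, Hsd17b10, Hsd17b11 and Hsd17b12. They were chosen by gene symbol, and all 10 were found among the 43346 mouse gene identifiers of the gene tables. The study sequenced poly(A) RNA over 200 nt, freed of ribosomal RNA, from C57BL/6J adrenal glands at 8 weeks as stranded pairs of 76 nt reads with added spike-in RNAs. There was 1 group of 2 libraries, called biological replicates 1 and 2 in the labels, with no treatment, transgene or other genotype given. The animals were littermates of both sexes according to the labels, the sex was not recorded per sample, the health state was given as unknown and both samples carried the same donor identifier. How many glands went into each library was not given, so p-values below measure counting error between these libraries and not variation between animals. In RNA from whole glands, fewer cells of a type and less RNA per cell cannot be told apart.

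Both enzyme families move hydrogen between a steroid and a nicotinamide cofactor, and so switch a hormone between its hydroxyl and keto forms. In the endoplasmic reticulum Hsd11b1 makes active corticosterone from inert 11-dehydrocorticosterone, driven by the NADPH that H6pd produces in the lumen, whereas Hsd11b2 runs the opposite reaction and shields the mineralocorticoid receptor from glucocorticoids. Members of the Hsd17b family act on the 17 position of androgens and estrogens, but several are better known for lipid work: peroxisomal beta-oxidation (Hsd17b4), mitochondrial isoleucine breakdown and tRNA processing (Hsd17b10), lipid droplets (Hsd17b11) and fatty acid elongation (Hsd17b12).

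The libraries held 47615334 and 52890677 expected counts in replicates 1 and 2, the deposited estimates of read pairs per gene. Across the 15824 genes tested, chi-square was 103 per gene, so they were not repeats of 1 library. All 10 markers of the steroid-producing cortex were detected at 1 TPM or more in both libraries (TPM scales transcript levels to a fixed total per library), with a summed level of 25490 TPM in replicate 1 and 34070 TPM in replicate 2, and all 10 were higher in replicate 2 by adjusted p. The 10 adipocyte markers summed to 15820 TPM and 7130 TPM, the 10 chromaffin cell markers to 4852 TPM and 4132 TPM, and the stomach and pancreas markers to 98 TPM and 4.63 TPM. Cfd alone gave 9884 TPM and 3984 TPM of the adipocyte sums, and Chga 2420 TPM and 2083 TPM of the chromaffin sums. By adjusted p, 9 adipocyte markers were higher in replicate 1 and 1, Lep, in replicate 2. Of the chromaffin markers 6 were higher in replicate 1, 1, Pnmt, in replicate 2, and 3 in neither. By this measure 58.3% of all tested genes differed, in either direction. The hepatocyte markers summed to 45.7 TPM and 54.2 TPM, but of the 9 tested 8 were past 2-fold with more counts in replicate 2, and Cyp2e1, at 39.2 TPM and 16.2 TPM, was past it in the other direction. The libraries also differed in sex-linked RNA: the Y-linked gene Kdm5d had 221 counts in replicate 1 and 0 in replicate 2, with Eif2s3y, Uty and Ddx3y likewise at 0 in replicate 2, and Xist was at 5.70 TPM and 12.9 TPM. Replicate 2 thus held no count of these 4 Y-linked genes although the labels give littermates of mixed sex, and library and sex cannot be told apart in any difference below.

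H6pd was the most abundant of the 10 genes, followed by Hsd17b12, Hsd17b10 and Hsd11b1, and the classical sex steroid enzymes Hsd17b1, Hsd17b2 and Hsd17b3 lay at the bottom of the order with Hsd11b2. Detection at 1 TPM or more in both libraries was reached by 8 genes, and 6 exceeded 10 TPM. The 10 genes together summed to 387 TPM in replicate 1 and 406 TPM in replicate 2, or 0.0392% and 0.0410% of all TPM outside spike-ins, and H6pd alone took 37.8% and 37.6% of that sum. Mean levels of neighbours in the order kept the same order in both libraries with 1 exception: Hsd17b1 exceeded Hsd11b2 in replicate 1 (ratio 1.93) and not in replicate 2 (ratio 0.986). Hsd17b10 exceeded Hsd11b1 by ratios of 1.06 and 1.08, and the authors' intervals for these 2 genes overlapped.

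**Figure D1:**
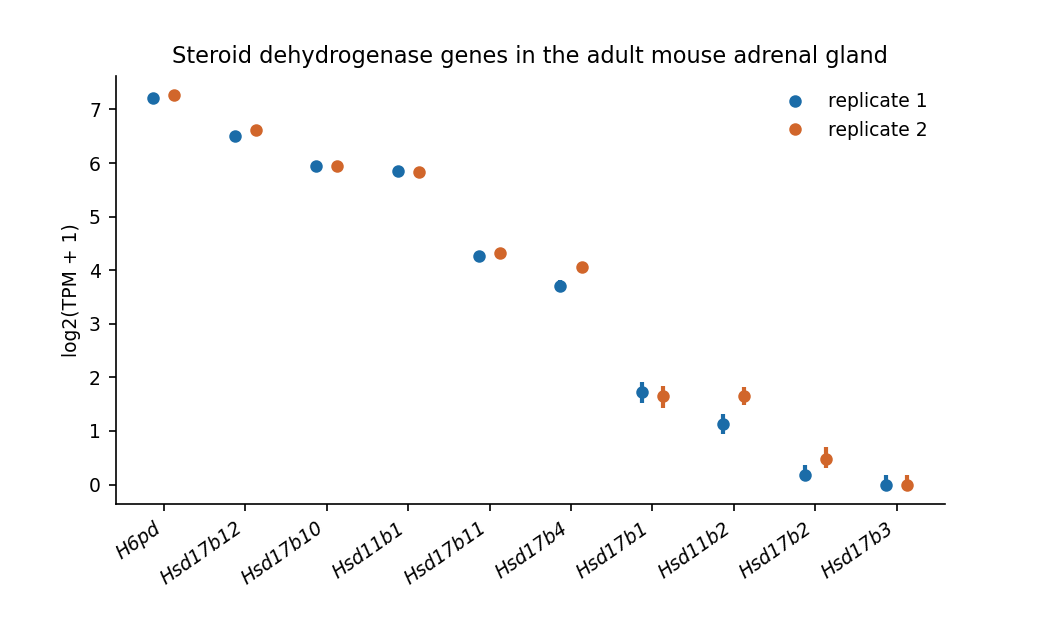
Level of each gene in each library on a log2(TPM + 1) axis, ordered by the mean; points are the deposited TPM, and vertical lines are the authors' intervals, whose level is not stated. Points of both replicates nearly coincide for the abundant genes, with H6pd at 147 and 153 TPM on top and Hsd17b3 at 0 in both.

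Among the enzymes of glucocorticoid interconversion, the activating pair was abundant and the inactivating enzyme was low. Hsd11b1 (ENSMUSG00000016194.10; mm10 chromosome 1, 193221634 to 193264075, minus strand) was at 56.7 TPM in replicate 1, from 1425 counts, and at 56.1 TPM in replicate 2, from 1491 counts, a mean of 56.4 ± 0.389 TPM (SD, n = 2). The libraries gave nearly the same level. On scaled counts the log2 ratio of replicate 1 over replicate 2 was 0.08, with a 95% interval from -0.02 to 0.19 (two-sided exact binomial test, Benjamini-Hochberg adjusted p = 0.19). The laminin gene Lamb3 overlaps Hsd11b1 on the opposite strand with 50 and 47 counts, and Gm38118 overlaps it on the same strand with 14 and 6 counts. Fat and liver are known to express Hsd11b1, and the summed adipocyte markers were at 15820 TPM and 7130 TPM in the same libraries; their part in its level was not tested.

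H6pd (ENSMUSG00000028980.10; chromosome 4, 149979475 to 150009023, minus strand), the lumenal hexose-6-phosphate dehydrogenase, reached 147 TPM in replicate 1 and 153 TPM in the other library, from 23011 and 25628 counts, a mean of 149.6 ± 4.35 TPM (SD, n = 2). It ranked 1140 among all genes by mean TPM. Its log2 ratio of -0.01 had the narrowest interval of the members, from -0.03 to 0.02 (exact binomial test, adjusted p = 0.63). H6pd exceeded Hsd11b1 2.58-fold in replicate 1 and 2.72-fold in replicate 2.

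Hsd11b2 (ENSMUSG00000031891.5; chromosome 8, 105518755 to 105523988, plus strand) had 1.20 TPM in replicate 1 and 2.16 TPM in the other, from 69 and 133 counts, a mean of 1.68 ± 0.679 TPM (SD, n = 2). Replicate 2 was the higher library, and the authors' intervals, 0.932 to 1.495 TPM and 1.79 to 2.51 TPM, did not overlap. The log2 ratio was -0.80, with a 95% interval from -1.24 to -0.37, a 1.74-fold difference that fell short of 2-fold (exact binomial test, adjusted p = 0.00045). Hsd11b1 exceeded Hsd11b2 47.2-fold in replicate 1 and 26.0-fold in replicate 2. Hsd11b2 is known to be abundant in the kidney distal tubule and collecting duct. Of 10 markers of these segments, 0 were detected at 1 TPM or more in both libraries and 3 were at 0 in both. Their summed level was 1.82 TPM in replicate 1 and 1.55 TPM in replicate 2. The 3 with enough counts for a test were Aqp2 (17 and 27 counts), Scnn1b (33 and 44) and Aqp3 (22 and 13). The part of kidney RNA in the level of Hsd11b2 was not tested.

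The genes best known for making or inactivating sex steroids in gonads and placenta were low or had no counts. Hsd17b1 (ENSMUSG00000019301.5; chromosome 11, 101078411 to 101080527, plus strand), which makes estradiol from estrone in ovarian granulosa cells, was at 2.31 TPM and 2.13 TPM in replicates 1 and 2, from 92 and 91 counts (mean 2.22 ± 0.127 TPM, SD, n = 2). Its log2 ratio of 0.16 had a wide interval, from -0.27 to 0.60 (exact binomial test, adjusted p = 0.55). Hsd17b2 (ENSMUSG00000031844.7; chromosome 8, 117701904 to 117759027, plus strand), which oxidises estradiol and testosterone, had 5 counts in replicate 1 and 16 in replicate 2, or 0.130 TPM and 0.390 TPM (mean 0.260 ± 0.184 TPM, SD, n = 2). Replicate 2 was again higher, but the log2 ratio of -1.45 had an interval from -3.33 to -0.02 and did not pass (exact binomial test, adjusted p = 0.076). Liver is known to express Hsd17b2. Of the 9 hepatocyte markers tested, 8 passed 2-fold with higher counts in replicate 2, among them Alb with 22 and 441 counts. Cyp2e1, the most abundant of that list, passed it in the other direction with 2223 and 985 counts. The part of liver RNA in the counts of Hsd17b2 was not tested.

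Hsd17b3 (ENSMUSG00000033122.9; chromosome 13, 64058266 to 64089230, minus strand), which reduces androstenedione to testosterone in Leydig cells, had 0 counts in both libraries. At this depth a count of 0 allows a level of up to 0.0852 TPM in replicate 1 and 0.0790 TPM in replicate 2, taking 3 counts as the limit and covering counting error only. The authors' intervals, whose level is not stated, reach higher, to 0.135 TPM in replicate 1 and 0.125 TPM in replicate 2. The posterior mean values that the authors also deposited put it at a mean of 0.055 TPM. Of the 10 genes listed for testis, ovary and placenta, not all of them particular to steroid-making cells, 5 were detected in both libraries: Inha (228 TPM and 192 TPM), the Leydig cell hormone Insl3 (39.5 TPM and 38.9 TPM), Hsd3b6 (21.1 TPM and 21.9 TPM), Dhh (7.28 TPM and 5.48 TPM) and Amh (2.15 TPM and 1.67 TPM). The other 5 were lower, with Cyp19a1 and Fshr at 0 counts in both libraries and Cyp17a1, the 17-hydroxylase that makes androgen precursors, at 10 and 8 counts. The summed level of all 10 was 298 TPM in replicate 1 and 260.4 TPM in replicate 2, and which cells of the gland they came from was not tested.

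The members known for fatty acid and amino acid metabolism held more of the RNA than the sex steroid enzymes. Hsd17b12 (ENSMUSG00000027195.6; chromosome 2, 94032689 to 94157964, minus strand), the 3-ketoacyl-CoA reductase of fatty acid elongation, was at 89.97 TPM and 97.1 TPM in replicates 1 and 2, from 4963 and 5741 counts (mean 93.5 ± 5.05 TPM, SD, n = 2). Replicate 2 was slightly higher, with a log2 ratio of -0.06 and an interval from -0.12 to -0.01 (exact binomial test, adjusted p = 0.044). That p was 0.064 with DESeq2 size factors, 0.061 with total counts and 0.053 without a count filter, so it stood on either side of 0.05 depending on the setting.

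Hsd17b10 (ENSMUSG00000025260.6; chromosome X, 152001845 to 152004442, plus strand), the mitochondrial enzyme that also serves as a subunit of RNase P, was at 60.3 TPM and 60.5 TPM, from 1603 and 1742 counts (mean 60.4 ± 0.198 TPM, SD, n = 2). The level was nearly the same in both libraries, with a log2 ratio of 0.03 and an interval from -0.07 to 0.13 (exact binomial test, adjusted p = 0.67). Hsd17b11 (ENSMUSG00000029311.12; chromosome 5, 103989762 to 104021919, minus strand), a lipid droplet protein, was at 18.3 TPM and 19.0 TPM, from 1039 and 1161 counts (mean 18.7 ± 0.523 TPM, SD, n = 2). Its log2 ratio was -0.01, from -0.13 to 0.11 (exact binomial test, adjusted p = 0.89).

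Hsd17b4 (ENSMUSG00000024507.6; chromosome 18, 50128201 to 50196269, plus strand), the multifunctional enzyme of peroxisomal beta-oxidation, had 12 TPM in replicate 1 and 15.8 TPM in replicate 2, from 1039 and 1461 counts (mean 13.9 ± 2.65 TPM, SD, n = 2). Of the 6 members above 10 TPM it differed most between them, replicate 2 being higher. Its log2 ratio was -0.34, from -0.46 to -0.23, or 1.27-fold (exact binomial test, adjusted p = 1.6e-08). A pseudogene, Cd63-ps, overlaps it on the same strand with 24.5 and 18.2 counts. The cortex markers were also higher in replicate 2, with a median log2 ratio of -0.42, and their part in the result was not tested.

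No member passed the rule for a difference between the libraries. Hsd17b3 did not reach the summed count of 20 needed for a test, and of the 9 tested members 0 were past 2-fold with an adjusted p under 0.05, where 6.92% of the 15824 tested genes were (1095 genes, 689 higher in replicate 1 and 406 in replicate 2). For 9 genes a count of 0 is near that background. By adjusted p alone 3 of 9 members passed, Hsd17b4, Hsd11b2 and Hsd17b12, all higher in replicate 2, where 58.3% of all tested genes passed. At an unadjusted p under 0.05 in the binomial test the count was 4 members, where 9794 of the 15824 tested genes passed. Given a biological coefficient of variation of 0.2 by assumption, edgeR's exact test also called 0 members, and 244 of all genes. The members' median log2 ratio was -0.01, and the median of all tested genes was -0.004. When libraries were scaled to the spike-in RNAs, the median of all genes shifted by -0.43, all 9 members were lower in replicate 1, Hsd11b2 (-1.22) and Hsd17b2 (-1.85) passed 2-fold, and 289 genes were higher in replicate 1 against 1303 in replicate 2.

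**Figure D2:**
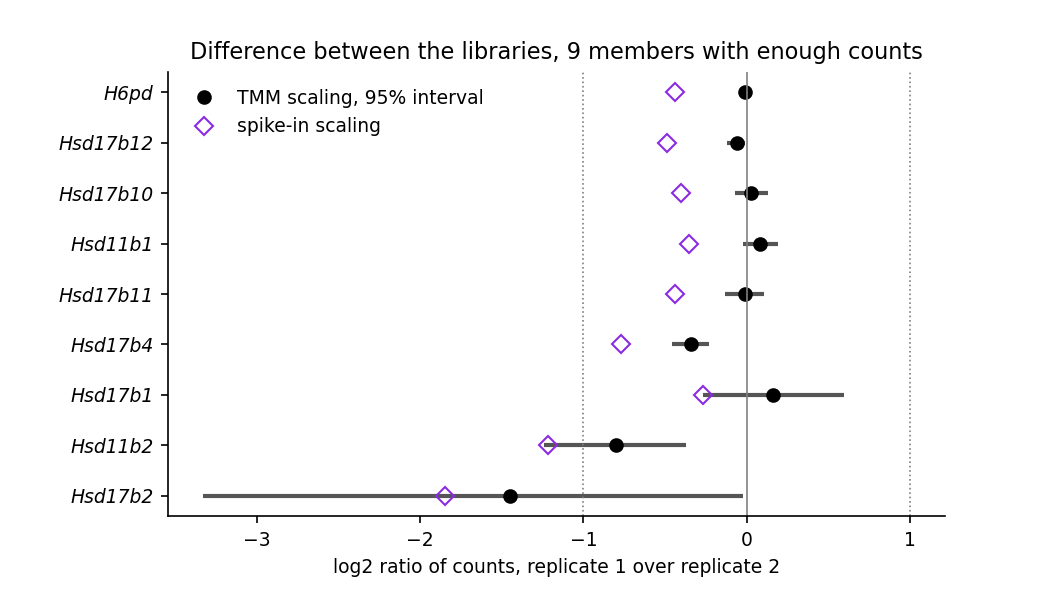
Log2 ratio of scaled counts, replicate 1 over replicate 2, for the 9 tested members; black points use TMM scaling with exact 95% intervals of counting error, open diamonds use spike-in scaling, and dotted lines mark 2-fold. Intervals widen from H6pd (-0.03 to 0.02) to Hsd17b2 (-3.33 to -0.02), and spike-in scaling moves every point to the left.

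The deposited transcript tables held 31 transcripts of the 10 genes, of which 11 were at 0 in both libraries. For the 6 expressed genes with several annotated transcripts, the same transcript led in both libraries in 6 of 6. Hsd17b4-201 (100% of the gene's TPM in both libraries), Hsd17b11-201 (99.1% and 99.2%) and Hsd17b10-201 (98.5% and 98.8%) stood almost alone, while Hsd11b1, H6pd and Hsd17b12 divided their RNA between transcripts. Such shares are the authors' estimates from reads that transcripts hold in common, so they were set beside the deposited splice junctions. The junction table names no replicate, so it was taken as pooled over both libraries. Because it is in another build, mm9, its introns were assigned by the pattern of intron lengths and exon spacing. This placed 8 of the 10 genes, and Hsd17b2 and Hsd17b3 could not be assigned.

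**Figure D3:**
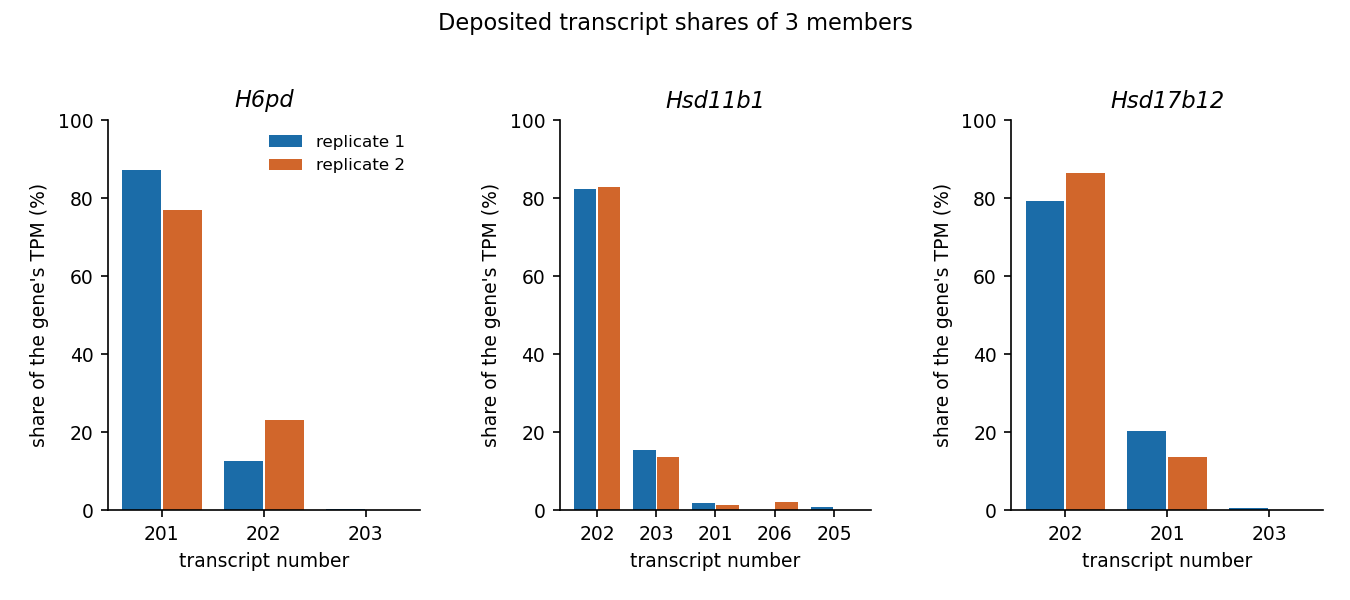
Share of each transcript in its gene's summed TPM, in percent, for H6pd, Hsd11b1 and Hsd17b12; bars are the replicates, and transcripts under 0.1% on average are not drawn. The leading transcript is the same in both libraries, and H6pd-202 has 12.6% in replicate 1 and 23.1% in replicate 2.

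H6pd had reads from alternative first exons. H6pd-201, the longer coding transcript with 4745 nt, took 87.1% of the gene's TPM in replicate 1 and 76.9% in replicate 2 (82.0% ± 7.25, SD, n = 2). H6pd-202, which starts inside the first intron of H6pd-201, took 12.6% and 23.1%, while the gene's total was nearly the same in both libraries. Junction reads, taken as pooled, that joined a first exon to the shared next exon numbered 481. Of these, 407 came from H6pd-201 (84.6%, exact 95% interval 81.1 to 87.7), 65 from H6pd-202 (13.5%, 10.6 to 16.9) and 9 from H6pd-204 (1.87%, 0.859 to 3.52). Later introns had 208, 207 and 700 reads. The RefSeq start of H6pd lies 5787 bases downstream of the start of H6pd-201 and 106 bases upstream of that of H6pd-202. The RefSeq window before the minor start is shown because the annotated start of H6pd-202 lies just downstream of it (GRCm38.p6, chr4:150003187-150003486, minus strand, 5′ to 3′). Capitals mark matches to the searched motifs CCAAT and AGGTCA. The latter was searched as the 6-base core of the longer site of the steroidogenic factor NR5A1, and was found here as its reverse complement TGACCT. Bases around the core were not searched, so the match does not show a site for NR5A1.
H6pd: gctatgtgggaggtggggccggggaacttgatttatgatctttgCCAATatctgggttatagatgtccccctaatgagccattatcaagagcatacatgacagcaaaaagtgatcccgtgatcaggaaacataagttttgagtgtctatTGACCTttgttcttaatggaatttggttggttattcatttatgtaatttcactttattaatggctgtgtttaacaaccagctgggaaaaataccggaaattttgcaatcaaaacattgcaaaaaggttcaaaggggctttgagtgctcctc

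In these 300-base windows the letters AGGTCA or their reverse complement occurred in 1 of the 6 members searched, H6pd, and in 16.3% of all 32851 promoters. The promoter set used here held no window for Hsd11b2, Hsd17b1, Hsd17b2 or Hsd17b4. CCAAT or ATTGG occurred in 5 of 6, all but Hsd17b3, and in 37.4% of promoters. GGGCGG or CCGCCC occurred in 3 of 6, Hsd17b10, Hsd17b11 and Hsd17b12, and in 35.7% of promoters, while TATAAA or TTTATA occurred in 0 of 6 and in 13.6%. The motifs do not overlap in letters with each other in the H6pd window, and a match describes letters only. The window is not at the start of every leading transcript: Hsd11b1-202 starts 1201 bases upstream of the RefSeq start of Hsd11b1.

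Hsd11b1 was assigned mainly to a short coding transcript. Hsd11b1-202, of 836 nt, took 82.2% and 82.9% of the gene's TPM in replicates 1 and 2 (82.5% ± 0.506, SD, n = 2), Hsd11b1-203 took 15.3% and 13.6%, and Hsd11b1-201 took 1.82% and 1.39%. By expected counts, which are not divided by length, the share of Hsd11b1-202 was 74.0%. Junction reads rose along the gene, with 10 for the first intron of Hsd11b1-201, then 105, 664 and 1106, and fell to 65 for its last intron, which Hsd11b1-202 lacks. The junction that belongs to Hsd11b1-202 alone had 1 read, and the one that belongs to Hsd11b1-205 alone had 3.

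In Hsd17b12, too, the estimated transcript shares and the junction reads differed. Hsd17b12-202, annotated as a processed transcript without a coding sequence, was given 79.3% and 86.3% of the gene's TPM in replicates 1 and 2 (82.8% ± 4.96, SD, n = 2), and the coding Hsd17b12-201 was given 20.2% and 13.7%. The transcripts differ at exon 3 of Hsd17b12-201 (chromosome 2, 94114993 to 94115068 in mm10), whose 76 coding bases leave a remainder of 1 on division by 3 and which Hsd17b12-202 skips. Junction reads into and out of this exon numbered 35 and 2, and the skipping junction, a 34155-nt intron, was not listed. The first intron, shared by both transcripts, had 6126 reads, against 2 to 317 in the other introns of Hsd17b12-201. Junction reads were thus very uneven along the gene. The joined exon ends, from GENCODE M21 transcripts on GRCm38, are shown 5′ to 3′ because these 30 bases tell the transcripts apart. Capitals mark bases of exon 3.
Hsd17b12-201 exons 2 and 3: gcatatgcagaagagTTAGCAAAACGTGGA
Hsd17b12-201 exons 3 and 4: TTTCCAACAACATCAaagaaaaattcaacg
Hsd17b12-202 exons 2 and 4: gcatatgcagaagagaagaaaaattcaacg

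Read in order, the first had 35 junction reads, the next had 2, and the last, in which exon 3 is missing, was not listed.

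**Figure D4:**
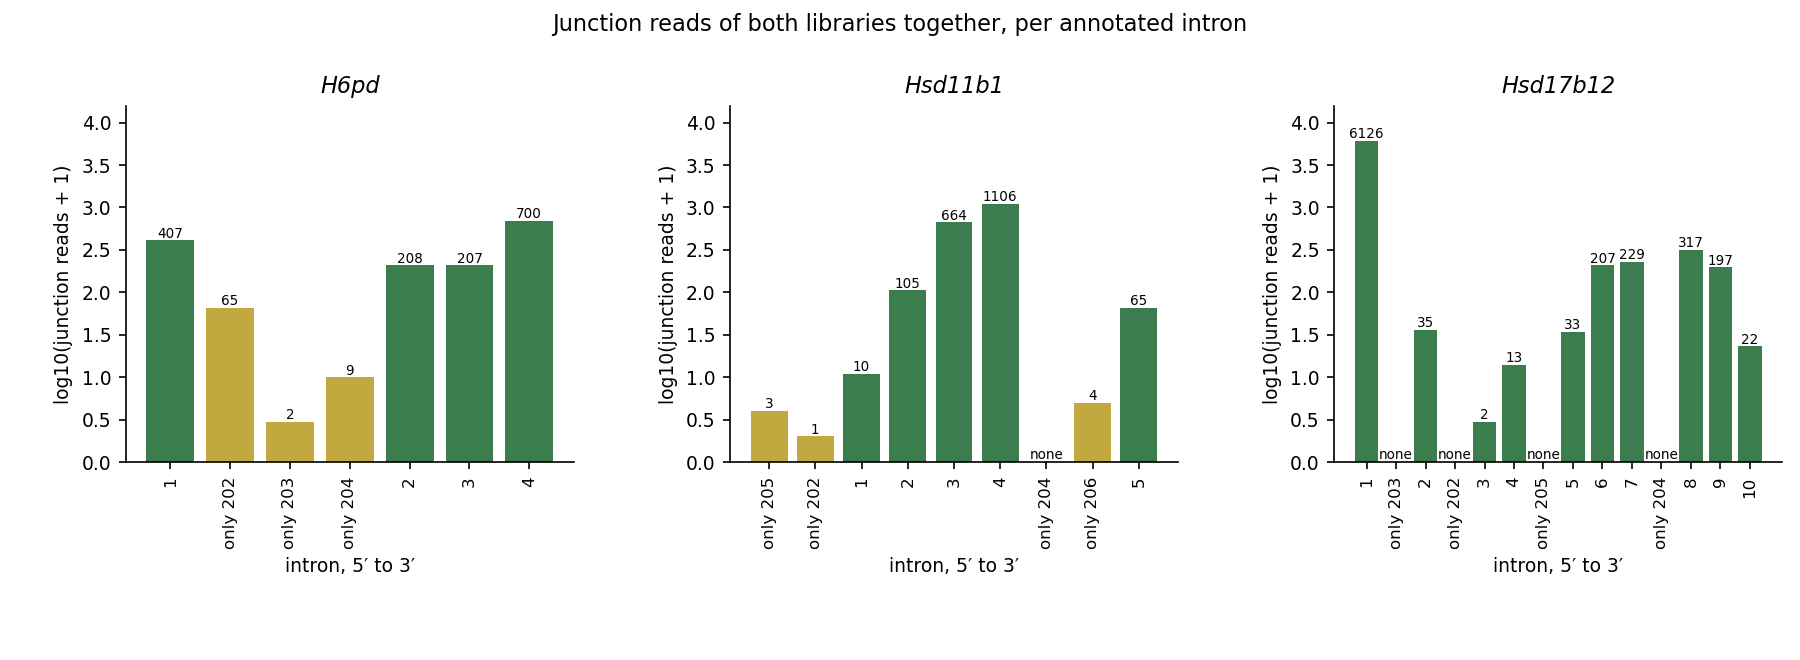
Junction reads per annotated intron, taken as pooled over both libraries because no replicate is given. Bars show log10(reads + 1) with the read number above each. Green bars are introns of transcript 201 by number, yellow bars introns of another transcript alone, and "none" marks introns not listed. Hsd17b12 has 6126 reads at intron 1 and none at the intron of transcript 202, H6pd has 407 reads at the first intron of transcript 201 and 65 at that of transcript 202, and Hsd11b1 peaks at 1106 reads at intron 4.

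In the other assigned members junction reads varied widely between introns, except in Hsd11b2. Hsd11b2, at 1.68 TPM, had even reads over its 4 introns, with 17, 14, 14 and 12. All 23 introns of Hsd17b4-201 were listed, with 5 to 1394 reads and a median of 29, the highest at the first intron. Hsd17b10 had 74, 23, 163, 1456 and 1725 reads from its first to its last intron. Hsd17b11 had 1 read at its first intron and none listed at the next, then 148, 1037, 382 and 5. Hsd17b1 had 11 reads at its first intron, none listed at the next, then 2, 12 and 68.

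Of 4 other family genes found, 2 had enough counts for a test, and Hsd17b7 passed 2-fold between the libraries. Hsd17b7, which acts in cholesterol synthesis as a 3-ketosteroid reductase, had 4.59 TPM in replicate 1 and 10.7 TPM in replicate 2 (log2 ratio -1.21, exact binomial test, adjusted p = 3.1e-72). Hsd17b14 was at 2.31 TPM and 1.53 TPM (adjusted p = 0.87 by the exact test), Hsd17b6 had 0 counts and 1 count, and Hsd17b13 had 0 in both.

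The receptors and responsive genes of the hormones that the Hsd11b enzymes control were all present. All 10 genes of that list were detected and 0 passed 2-fold, with 5 higher in replicate 1 and 4 in replicate 2 by adjusted p (median log2 ratio 0.04). Beside such counts, here and in the lists below, 58.3% of all tested genes passed by adjusted p alone, in either direction. The glucocorticoid receptor gene Nr3c1 was at 6.40 TPM and 4.26 TPM (log2 ratio 0.41, exact test, adjusted p = 5.4e-05), and the mineralocorticoid receptor gene Nr3c2 at 3.37 TPM and 4.41 TPM (log2 ratio -0.05, exact test, adjusted p = 0.67). The most abundant were the receptor chaperone Fkbp4 (188 TPM and 200.2 TPM), Dusp1 (87.3 TPM and 80.3 TPM), the glucocorticoid-induced Tsc22d3 (53.3 TPM and 71.3 TPM) and Per1 (41.5 TPM and 75.6 TPM). Hsd11b2 and Nr3c2 were of the same order, at 1.68 TPM and 3.37 to 4.41 TPM.

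Among the 12 genes listed around the NADPH supply of the endoplasmic reticulum and cytosol, not all of which make NADPH, 6 had a mean of 100 TPM or more. Of 12 genes, 11 were detected and 0 passed 2-fold (3 higher in replicate 1, 4 higher in replicate 2, 5 neither by adjusted p; median log2 ratio -0.08). The glucose-6-phosphate carrier Slc37a4, which brings H6pd its substrate, was at 11.1 TPM and 12.6 TPM, and the phosphatase G6pc3, which uses the same lumenal pool, at 254 TPM and 295 TPM. The cytosolic counterpart of H6pd, G6pdx, was at 55.3 TPM and 65.7 TPM, below H6pd in each library. The pentose phosphate genes Tkt (1593 TPM and 1193 TPM), Pgls (679 TPM and 690 TPM) and Taldo1 (310 TPM and 258 TPM) and the malic enzyme Me1 (381 TPM and 305 TPM) were the 4 highest by mean TPM.

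Genes of androgen and estrogen metabolism outside the Hsd17b family included a large difference between the libraries. Of 15 genes found, 7 were detected in both libraries. The 5-alpha-reductase Srd5a2 reached 1298 TPM in replicate 1 and 61.9 TPM in replicate 2, or 21.4-fold, and Dhrs9 had 34 and 12 counts; both passed 2-fold. Srd5a3 (284 TPM and 358 TPM) and Akr1c18 (134 TPM and 224 TPM) were also abundant, and the aromatase Cyp19a1, Esr2, Sult1e1 and Sult2a1 had 0 counts.

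The lipid pathways around Hsd17b4, Hsd17b10, Hsd17b11 and Hsd17b12 were well represented. Of 16 peroxisomal beta-oxidation genes 14 were detected, led by Acaa1a (687 TPM and 603 TPM) and Ech1 (560 TPM and 478 TPM), and the transporter Abcd3 alone passed 2-fold, at 2.18 TPM and 4.68 TPM (log2 ratio -1.05, exact test, adjusted p = 5.6e-22). Of that list 7 genes were higher in replicate 1 and 4 in replicate 2 by adjusted p, with a median log2 ratio of 0.16, while Hsd17b4 was at -0.34. Of 12 elongation genes found, 9 were detected and 0 passed 2-fold (4 higher in each library, median 0.02), and Tecr, whose product acts last in the elongation cycle, was at 788 TPM and 872 TPM. Its companions Elovl1 (162 TPM and 230 TPM), Hacd3 (200.5 TPM and 186 TPM) and Elovl5 (123 TPM and 252 TPM) were all above Hsd17b12.

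All 11 genes found for mitochondrial RNase P and isoleucine breakdown were detected and 0 passed 2-fold (3 higher in replicate 1, 5 in replicate 2, median -0.01). Trmt10c, the partner of Hsd17b10 in RNase P, was at 8.76 TPM and 8.83 TPM, far below Hsd17b10 at 60.4 TPM, and Bckdha (749 TPM and 620 TPM), Bcat2 (146 TPM and 145 TPM) and Echs1 (144 TPM and 131 TPM) were above it. All 12 lipid droplet genes were detected. By adjusted p 10 were higher in replicate 1 and 2 in replicate 2, where 58.3% of all tested genes passed in either direction. The list had a median of 0.39, and Plin5 was past 2-fold (92.1 TPM and 42.6 TPM). The most abundant were Pnpla2 (1749 TPM and 1152 TPM), Cidec (901 TPM and 511 TPM) and Plin1 (821 TPM and 486 TPM). Cidec and Plin1 are also adipocyte markers, whose list had a median of 0.88, and the part of fat in these values was not tested. Hsd17b11 and Hsd11b1 had log2 ratios of -0.01 and 0.08, and the part of fat in their levels was not tested either.

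**Figure D5:**
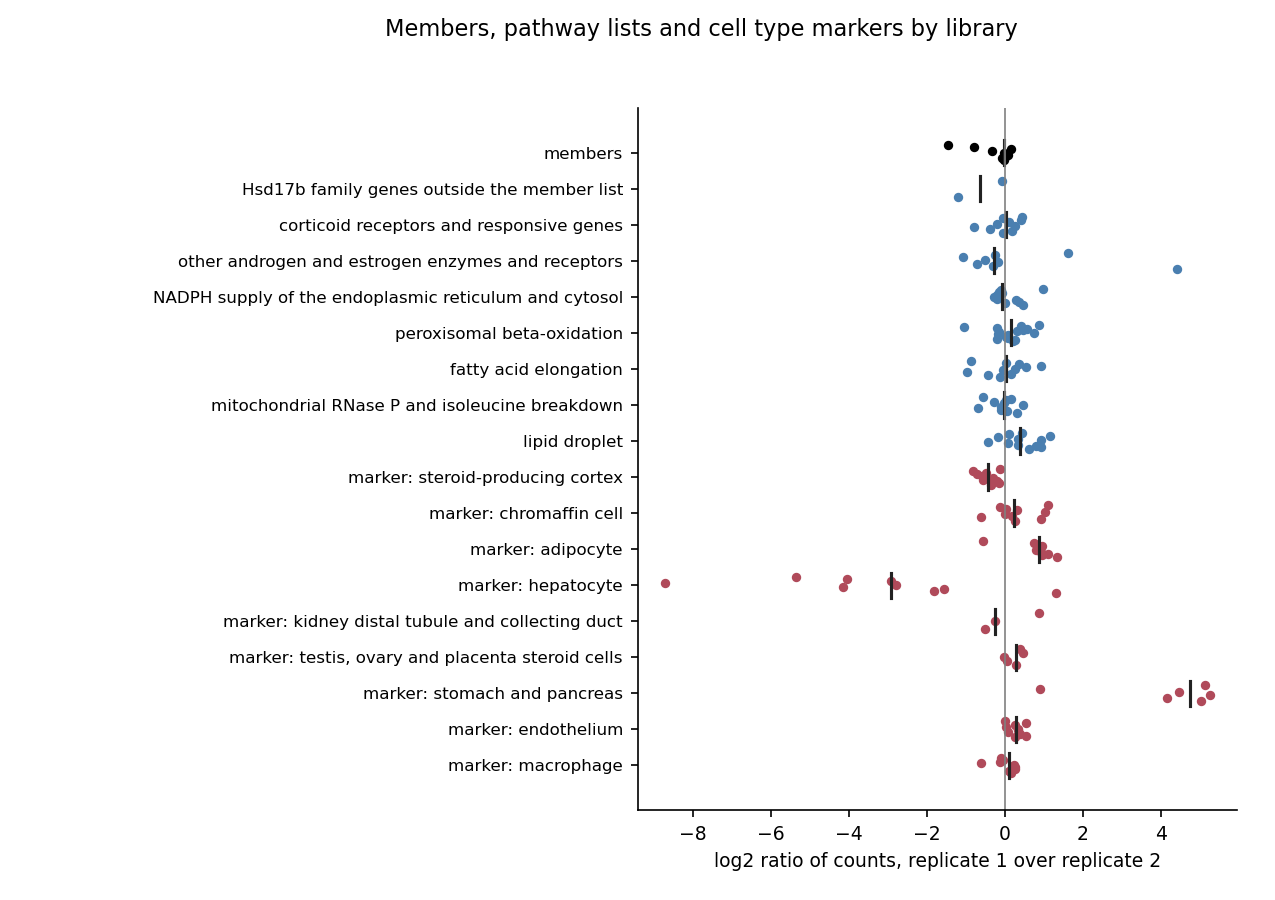
Log2 ratio of scaled counts, replicate 1 over replicate 2, for the tested members (black), pathway genes (blue) and cell type markers (red); each point is a gene and each bar the median of its list. The members have a median of -0.01, the cortex markers of -0.42, the adipocyte markers of 0.88 and the lipid droplet genes of 0.39.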

How the data were processed

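Poly(A) RNA of 2 adrenal libraries was analysed. The deposited gene and transcript tables give, per feature of 1 library, expected count, TPM and FPKM, and also posterior means and intervals of TPM. FPKM was not used, nor was the deposited contig table. Per the readme files beside them they derive from transcriptome alignments to mm10 with annotation M4; the aligner and quantifier were not given in the sources used here. Each deposited expected count is an unnormalized estimate of read pairs, and the authors' TPM sums to the same total in each library, genes and spike-ins included. The deposited mm9 junction table holds a read count per junction and the authors' score, whose direction is not stated; no replicate is given, so it was taken as pooled, and an unlisted junction has no limit.

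Names and positions came from GENCODE M21 (42462 of 43346 identifiers matched without version), promoters from RefSeq GRCm38.p6. Spike-ins (0.656% and 0.486% of counts) were left out of library sizes. Expected counts were rounded and scaled with TMM factors (1.001 and 0.999; edgeR 4.0.16, R 4.3.3; DESeq2 1.42.0 as an alternative). Genes whose counts summed to 20 or more had a two-sided exact binomial test (scipy 1.17.1, Python 3.11.15), adjusted over all 15824, called at adjusted p under 0.05 and 2-fold. Ratios used a prior count of 0.5 and exact 95% intervals, which cover counting error only. Introns were assigned to a gene when at least 3 fitted its pattern, with no coordinates converted. Tested on simulated data for replicate 1 against replicate 2 (15780 genes), the test called 91 of 100 genes changed 2.5-fold, 98 of 100 changed 4-fold and 0 of 15580 unchanged. The simulated counts held counting error only and no other variation between libraries. These calls therefore check the computation and give no rate of false calls for the real libraries.

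All members were named, with the 2 to 4 most abundant genes and every called gene of each pathway list; Slc37a4, G6pc3, G6pdx, Nr3c1, Nr3c2, Trmt10c, Inha and others named for their role fall outside that rule and were chosen after their values were seen. Members and lists were chosen with earlier results of these data known. A result of the androgen and estrogen list is not reported here.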

Additional observations from a re-analysis of the deposited data

How the results depend on the processing

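Members past 2-fold numbered 0 and became 2 with spike-in scaling (Hsd11b2 at -1.22, adjusted p = 9.1e-09, and Hsd17b2 at -1.85, adjusted p = 0.01, by the exact test) and 1 with a minimum fold of 1.5 (Hsd11b2). For all genes the count of 1095 became 2491 with a minimum fold of 1.5 and 244 with edgeR's exact test given a biological coefficient of variation of 0.2; with spike-in scaling it was 1592, with the directions given above. The log2 ratio changed sign with spike-in scaling for Hsd11b1 (-0.35), Hsd17b1 (-0.27) and Hsd17b10 (-0.40), and for Hsd17b10 on the log2(TPM + 1) scale (-0.01). The number of detected members was 8 at 0.5 TPM, with posterior means and in either library alone, and 6 at 5 TPM. The leading transcript was the same in both libraries for 6 of 6 genes also by expected counts and by posterior means. Leaving out a library leaves no ratio, so levels without replicate 1 or 2 are those of the other library. Depth limits the low members: Hsd17b3, at 0 counts, has only an upper limit, and the ratios of Hsd17b2, Hsd17b1 and Hsd11b2 rest on few counts. No paired analysis was possible because there is a single group.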
